A study of Homo sapiens with 4 samples.

Results

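The DOCK exchange factors and IQGAP scaffolds are long genes of cell motility, and 9 of them were examined, 6 DOCK genes (DOCK2, DOCK5, DOCK8, DOCK9, DOCK10 and DOCK11) and 3 IQGAP genes (IQGAP1, IQGAP2 and IQGAP3), of 20323 genes in the deposited table. They were taken by matching Ensembl identifiers to these symbols, and all 9 were found. The members were chosen by their function with the counts and fold changes of these same libraries already known, so their differences between NK shADAR1 and NK scramble cells are a description and carry no test.

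RNA was sequenced from NK-92, a human natural killer cell line that depends on interleukin-2 and was grown here with 100 IU/ml of it. Cells received lentivirus carrying either a scrambled short hairpin RNA (NK scramble, n = 2 libraries) or a hairpin against ADAR1, the adenosine deaminase that edits double-stranded RNA (NK shADAR1, n = 2). The question was how gene expression changes when ADAR1 is reduced in natural killer cells. The design text calls the 2 libraries of each group independent biological replicates of this 1 cell line, and all 4 libraries carried a lentiviral hairpin. The knockdown libraries are numbered shADAR1-1 and shADAR1-2 in the labels and were treated as replicates 1 and 2 of 1 group. The study, which made 2 hairpins, gives the sequenced knockdown cells as shADAR1-2, so the library numbers were not read as hairpin numbers.

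DOCK proteins are large guanine nucleotide exchange factors: they load small GTPases such as Rac and Cdc42 with GTP through a DHR2 domain rather than the Dbl homology domain of most other exchange factors of these GTPases. DOCK2 and DOCK5 (subfamily A) act on Rac with the adaptor ELMO, DOCK8 (subfamily C) acts on Cdc42, and DOCK9, DOCK10 and DOCK11 (subfamily D, the zizimins) act on Cdc42, with DOCK10 also acting on Rac. IQGAP proteins are scaffolds that bind the GTP-loaded forms of Rac and Cdc42 together with actin and calmodulin, and despite their name they do not speed up GTP hydrolysis. Lymphocytes use these proteins to polarize, to migrate and to build the contact with a target cell, and inherited loss of DOCK2 or DOCK8 causes combined immunodeficiency.

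ADAR, the targeted gene, stood at 655.0 and 682.1 CPM (counts normalised to library size) in NK scramble replicates 1 and 2, and at 575.1 and 482.2 in NK shADAR1 replicates 1 and 2. Both knockdown libraries lay below both control libraries, with a log2 fold change of -0.34 ± 0.20 (SE) that did not pass edgeR's quasi-likelihood test (adjusted p = 1.00). The libraries held 37881704 to 39960491 estimated counts. All 8 natural killer markers examined were above 1 FPKM (fragments scaled for transcript length and depth) in every library, with a sum of 2959 to 3373 FPKM per library. Of the B cell markers 0 of 3 passed that level in every library, with CD79A at 0.501 to 2.36 FPKM and MS4A1 listed at 0, and the T cell gene CD8A was listed at 0, whereas CD3E and TRAC passed and brought the T cell sum to 500.1 to 693.8 FPKM. The myeloid sum was 4.94 to 6.72 FPKM, the epithelial sum 0 to 0.072 FPKM and the fibroblast sum 51.4 to 68.1 FPKM, the last from PDGFRB. The part of these markers in the values below was not tested. In bulk RNA, fewer cells that express a gene and less RNA of it per cell cannot be told apart.

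Across the whole table the values of NK shADAR1 replicate 1 shifted with transcript length. With the tested genes sorted by length into 10 groups of equal size, its median log2 difference from the NK scramble mean went from -0.10 in the shortest (207 to 1112 bases) to 0.18 in the longest (5748 to 80970 bases). For NK shADAR1 replicate 2 the same medians were 0.14 and -0.00. The control libraries, replicate 1 minus replicate 2, differed by a median of -0.18 in the shortest group and -0.04 in the longest. Of the 8 members that could be placed, 5 fell in the longest group and 3 in the next, so each knockdown library is given apart throughout.

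At the level of the RNA, 4 tested members (DOCK10, DOCK11, IQGAP1 and IQGAP2) were higher in both knockdown libraries than in both control libraries. They were also at least 1.5-fold higher in the mean. DOCK2, DOCK8 and DOCK9 were highest in NK shADAR1 replicate 1 but overlapped between the groups, IQGAP3 was slightly lower in the mean, and DOCK5 was nearly absent. Of the 9 members, 8 passed the filter on low counts and DOCK5 did not. The 1 to 6 counts of DOCK5 were also higher in both knockdown libraries. A fold of at least 1.5 towards NK shADAR1 was met by 4.81% of the 11810 genes tested, and 13.3% of those genes had both knockdown libraries above both control libraries. Since the members were chosen with this contrast in view, nothing is read from their share. Asking for an adjusted p below 0.05 together with a 1.5-fold difference, edgeR's quasi-likelihood test called 0 of the 11810 genes (0%), DESeq2 also called 0, and 293 genes had an unadjusted p under 0.05 in edgeR. The count of called genes was 47 without NK scramble replicate 1, 16 without NK shADAR1 replicate 1, 2 without NK scramble replicate 2 and 1 without NK shADAR1 replicate 2. The number of tested members with separated groups was 7 without NK scramble replicate 2 or without NK shADAR1 replicate 2, with DOCK2, DOCK8 and DOCK9 added. Fewer libraries leave fewer values to overlap, so this number could hardly fall. The share over all genes with a library left out was not computed, so nothing is read from the rise.

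**Figure D1:**
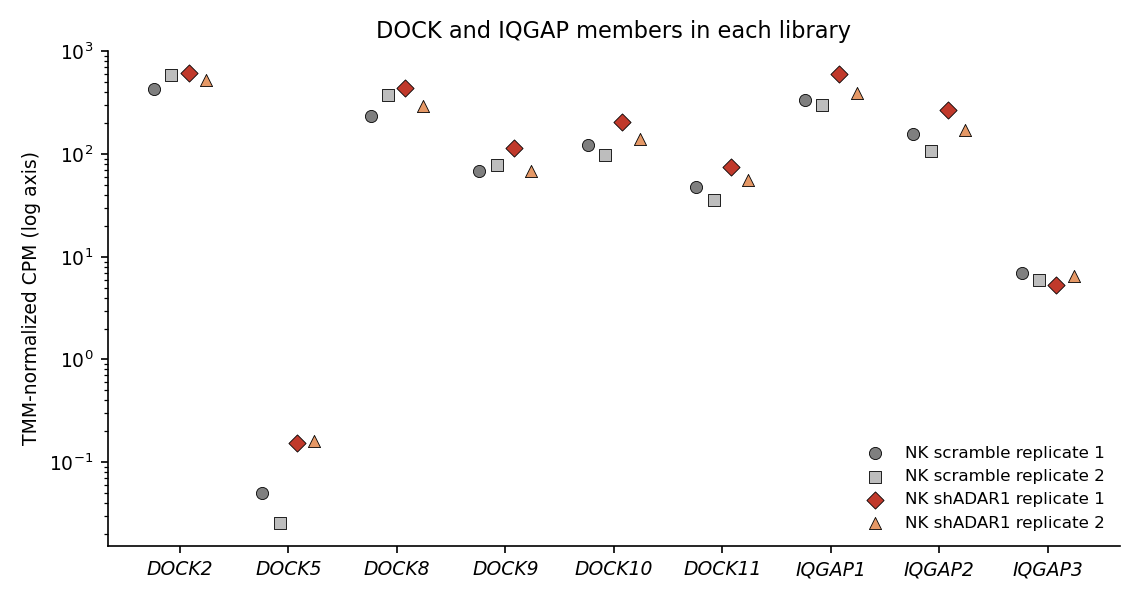
Normalised counts (CPM, log axis) of the 9 members in each of the 4 libraries, one point per library with the 2 NK scramble and the 2 NK shADAR1 libraries in separate colours. DOCK2 lies highest at 432.9 to 613.8 CPM and DOCK5 lowest at 0.0254 to 0.161 CPM. The points of the groups separate for DOCK10, DOCK11, IQGAP1 and IQGAP2, and for DOCK5 at 1 to 6 counts.

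For the 4 tested members whose groups did not overlap, the 250 bases before the outermost annotated start are shown. The promoters of these members can thus be compared. The sequences are from the RefSeq annotation of GRCh38.p14, written 5′ to 3′ on the gene's strand. Capitals mark each GC box, searched as GGGCGG on both strands.
DOCK10: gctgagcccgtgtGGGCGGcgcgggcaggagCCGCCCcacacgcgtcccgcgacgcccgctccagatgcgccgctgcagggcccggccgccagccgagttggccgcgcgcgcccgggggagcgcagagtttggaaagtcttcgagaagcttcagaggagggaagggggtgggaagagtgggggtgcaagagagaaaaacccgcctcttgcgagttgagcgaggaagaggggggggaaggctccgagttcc
DOCK11: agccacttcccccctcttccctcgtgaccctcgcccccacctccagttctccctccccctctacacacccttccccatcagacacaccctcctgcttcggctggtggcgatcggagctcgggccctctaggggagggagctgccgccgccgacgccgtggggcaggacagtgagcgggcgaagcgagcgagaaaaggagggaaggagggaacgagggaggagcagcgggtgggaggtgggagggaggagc
IQGAP1: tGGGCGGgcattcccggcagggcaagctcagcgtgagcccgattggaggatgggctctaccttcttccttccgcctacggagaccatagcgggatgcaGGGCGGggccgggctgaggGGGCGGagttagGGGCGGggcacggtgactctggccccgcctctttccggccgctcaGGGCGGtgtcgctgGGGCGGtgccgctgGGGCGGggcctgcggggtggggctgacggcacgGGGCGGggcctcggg
IQGAP2: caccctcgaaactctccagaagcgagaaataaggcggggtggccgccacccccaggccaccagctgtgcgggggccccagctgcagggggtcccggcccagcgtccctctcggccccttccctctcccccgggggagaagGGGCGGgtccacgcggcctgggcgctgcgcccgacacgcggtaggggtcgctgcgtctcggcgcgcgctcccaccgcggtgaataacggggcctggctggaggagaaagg
These windows lie at chr2:225042469-225042718 on the minus strand for DOCK10, chrX:118495565-118495814 on the plus strand for DOCK11, chr15:90387992-90388241 on the plus strand for IQGAP1 and chr5:76403035-76403284 on the plus strand for IQGAP2.

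The printed windows had a GC content of 70.4% for DOCK10, 68.8% for DOCK11, 74.4% for IQGAP1 and 73.6% for IQGAP2, against a median of 58.0% over all 35116 RefSeq windows of this length. The outermost windows of the other members with a window were GC-rich as well, at 82.8% for DOCK9, 75.2% for DOCK8, 68.0% for DOCK2 and 63.2% for IQGAP3, so GC content did not set the 4 apart. IQGAP1 held 8 GC boxes, DOCK10 held 2, IQGAP2 held 1 and DOCK11 held 0, so these 4 members did not share this motif. The hexamer was present in 42.6% of all windows. Windows were found for 8 members, 14 in all because DOCK8, DOCK9, DOCK10 and IQGAP2 have more than 1 annotated start, and 7 of the 14 held a GC box. The CCAAT box (CCAAT) was in 2 of the 14 and in 32.0% of all windows, once before IQGAP1 and once before an inner start of DOCK10. A TATA box (TATAAA) was in 1 of the 14, at an inner start of IQGAP2, and in 10.7% of all. An interferon regulatory factor motif (GAAANNGAA) was in 1 of the 14, at the same inner start of DOCK10 as its CCAAT box, and in 6.88% of all. ETS (CCGGAAG) and RUNX (TGTGGT) letters were in 0 of the 14, against 8.52% and 11% of all windows. All motifs were searched on both strands, and a match or its absence describes only these letters in these windows.

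The subfamily A gene DOCK2, the main Rac exchange factor of lymphocytes, spans 446136 bases at chr5:169637247-170083382 on the plus strand (GRCh38, GENCODE 29), and its longest coding transcript has 52 exons. NK scramble replicates 1 and 2 held 432.9 and 590.7 CPM of it, and NK shADAR1 replicates 1 and 2 held 613.8 and 525.1 CPM. The groups overlapped, since NK scramble replicate 2 lay above NK shADAR1 replicate 2. The means were 511.8 ± 111.6 and 569.5 ± 62.7 CPM (SD, n = 2), a log2 fold change of 0.15 ± 0.22 (SE). This was the smallest difference among the 5 tested DOCK genes.

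DOCK5, the other subfamily A gene here, is a Rac exchange factor known from osteoclasts and neutrophils. It had 2 and 1 estimated counts in the control libraries and 6 and 6 in the knockdown libraries. These counts were too few for the filter and for a fitted fold change. Summed over each group and set against depth, 12 counts against 3 gave a ratio of 4.16, which is a description and carries no test. At 0.005 to 0.015 FPKM DOCK5 lay at the bottom of the members in every library.

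DOCK8, the subfamily C exchange factor that keeps migrating lymphocytes intact and is needed for natural killer cytotoxicity, lies at chr9:214854-465259 on the plus strand. The control libraries, replicate 1 before replicate 2, were at 234.0 and 374.8 CPM and the knockdown libraries at 444.4 and 292.9 CPM. NK shADAR1 replicate 1 was the highest library and NK scramble replicate 1 the lowest, and NK scramble replicate 2 was above NK shADAR1 replicate 2. The means were 304.4 ± 99.6 and 368.7 ± 107.1 CPM (SD, n = 2), a log2 fold change of 0.28 ± 0.28 (SE). The control libraries differed from each other by -0.68 on the log2 scale, more than the knockdown mean differed from the control mean. An antisense gene, C9orf66, shares exon bases with DOCK8 on the other strand, and since strand use in counting is not given in the sources used here, reads of the pair cannot be told apart. C9orf66 itself was not analysed here.

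The 3 subfamily D genes differed among themselves. DOCK9 (zizimin 1), at chr13:98793429-99086625 on the minus strand, was at 68.5 and 79.1 CPM in the control libraries and at 113.7 and 69.2 CPM in the knockdown libraries, again with replicate 1 first. Only NK shADAR1 replicate 1 stood above the controls, and replicate 2 lay between them. The means were 73.8 ± 7.5 and 91.5 ± 31.5 CPM (SD, n = 2), a log2 fold change of 0.31 ± 0.25 (SE). The ratio of 1.64 between the knockdown libraries was the widest of the 8 tested members.

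DOCK10 (zizimin 3), an exchange factor that interleukin-4 induces in B cells, lies at chr2:224765090-225042445 on the minus strand, with 56 exons in its longest coding transcript of 7288 bases. The control libraries gave 122.2 and 98.1 CPM and the knockdown libraries 205.8 and 141.8 CPM. Both knockdown libraries were above both controls, with the lower of them 1.16 times the higher control. The means were 110.1 ± 17.1 and 173.8 ± 45.3 CPM (SD, n = 2), a fold of 1.58 and a log2 fold change of 0.66 ± 0.23 (SE). NK shADAR1 replicate 1 was 0.91 above the control mean on the log2 scale and replicate 2 was 0.37 above it.

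DOCK11 (zizimin 2), an exchange factor of Cdc42 found mainly in blood and lymphoid cells, lies at chrX:118495898-118686163 on the plus strand. Its values were 48.0 and 35.5 CPM in the controls and 75.05 and 56.3 CPM in the knockdown libraries. The order of the libraries was that of DOCK10, and the lower knockdown library was 1.18 times the higher control. The means were 41.7 ± 8.79 and 65.7 ± 13.2 CPM (SD, n = 2), a fold of 1.57 and a log2 fold change of 0.65 ± 0.23 (SE). The knockdown libraries were 0.86 and 0.45 above the control mean on the log2 scale.

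Among the scaffolds, IQGAP1, the widely expressed member found at the leading edge of migrating cells, lies at chr15:90388218-90502243 on the plus strand and has 38 exons in its longest coding transcript. NK scramble cells had 338.8 and 304.4 CPM, whereas NK shADAR1 cells had 603.1 CPM in replicate 1 and 397.0 CPM in replicate 2. The groups did not overlap, and the lower knockdown library was 1.17 times the higher control. The means were 321.6 ± 24.3 and 500.0 ± 145.8 CPM (SD, n = 2), a fold of 1.56 and a log2 fold change of 0.64 ± 0.24 (SE). The control libraries were close to each other, 1.11-fold apart, whereas the knockdown libraries were 1.52-fold apart.

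IQGAP2, best known from liver, lies at chr5:76403249-76708132 on the plus strand. Control replicates 1 and 2 were at 155.9 and 108.3 CPM, and knockdown replicates 1 and 2 were at 267.5 and 172.0 CPM. The groups were separated by the narrowest gap of the 4 tested members with no overlap, 1.10-fold. The means were 132.1 ± 33.7 and 219.7 ± 67.5 CPM (SD, n = 2), a fold of 1.66 and a log2 fold change of 0.73 ± 0.26 (SE), the largest of the tested members. F2RL2 shares exon bases with IQGAP2 on the other strand and had 0, 4, 0 and 5 counts in the 4 libraries, against 4255 to 10520 for IQGAP2.

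IQGAP3, the scaffold of proliferating cells, lies at chr1:156525405-156572604 on the minus strand. Its level was 6.94 and 5.96 CPM in the controls and 5.29 and 6.56 CPM in the knockdown libraries. The groups overlapped, and this was the 1 tested member with a negative log2 fold change, -0.12 ± 0.28 (SE). IQGAP3 was also the 1 tested member that was not highest in NK shADAR1 replicate 1. Its 208 to 277 counts carried a counting error of up to 6.93%, against at most 2.68% for the other tested members.

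**Figure D2:**
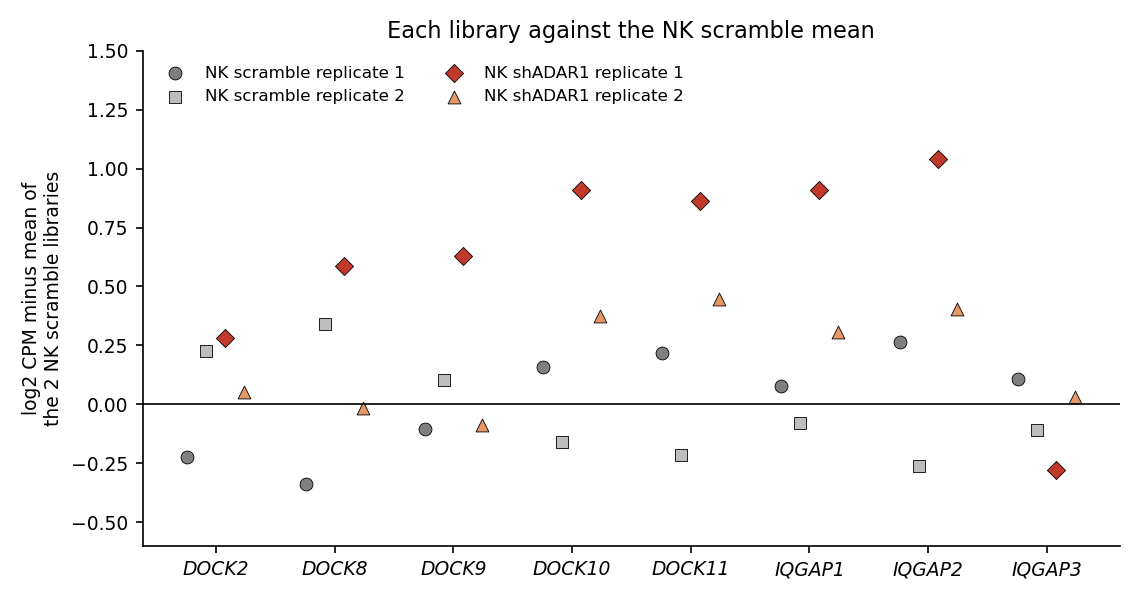
log2 CPM of each library minus the mean of the 2 NK scramble libraries for the 8 tested members, one point per library. NK shADAR1 replicate 1 lies between -0.28 (IQGAP3) and 1.04 (IQGAP2) and replicate 2 between -0.09 (DOCK9) and 0.45 (DOCK11), and all members but IQGAP3 lie higher in replicate 1 than in replicate 2.

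Seen by library, NK shADAR1 replicate 1 was the highest of the 4 in 7 of the 8 tested members, against 29.2% of all genes tested. The members' median log2 difference from the control mean was 0.74 in that library and 0.18 in replicate 2, beside 0.00 and 0.01 over all genes. In replicate 2 alone, 6 of the 8 lay above the control mean, and DOCK8 and DOCK9 lay at -0.02 and -0.09. The 2 control libraries did not order the members in 1 way either: replicate 1 was above replicate 2 for DOCK10, DOCK11, IQGAP1, IQGAP2 and IQGAP3, and below it for DOCK2, DOCK8 and DOCK9. The median log2 fold change of the 8 was 0.47, beside 0.0 over all genes. It was 0.17 without NK shADAR1 replicate 1 and 0.73 without replicate 2. Without NK shADAR1 replicate 1 the log2 fold changes were -0.05 for DOCK8, -0.09 for DOCK9 and 0.03 for IQGAP3, and without NK scramble replicate 1 they were -0.06 for DOCK2 and -0.03 for DOCK8.

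The members are long, and they differ in GC content. In 10 equal groups by GC content, numbered from the lowest, DOCK11 lay in group 2 and DOCK10 and IQGAP2 in group 3. DOCK9 and IQGAP1 lay in group 4, DOCK8 in group 5, DOCK2 in group 6 and IQGAP3 in group 7. The median log2 difference in NK shADAR1 replicate 1 was 0.09 and 0.05 in groups 2 and 3. In groups 4 to 7 it was -0.04, -0.09, -0.10 and -0.09. In the longest of the 10 length groups the median log2 fold change was 0.07, with an interquartile range of -0.08 to 0.28, and in the next group the median was 0.04. The 942 genes in the longest 2 of these groups and in the lowest 3 of 10 equal groups by GC content, DOCK10, DOCK11 and IQGAP2 among them, had a median log2 difference of 0.26 in NK shADAR1 replicate 1 and 0.02 in replicate 2. With length and GC content fitted out of each library, the log2 fold changes were 0.55 for DOCK10, 0.50 for DOCK11, 0.52 for IQGAP1 and 0.60 for IQGAP2, and both knockdown libraries of these 4 were still above both controls. The same fit gave 0.12 for DOCK2, 0.23 for DOCK8 and 0.24 for DOCK9. For IQGAP3 it gave -0.18, beside -0.12 in the main fit. IQGAP3 was the member richest in GC, at 55.2%. The 4 tested members with separated groups had 40.1% to 43.6%. The part of length and GC content in the remaining differences was not tested.

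**Figure D3:**
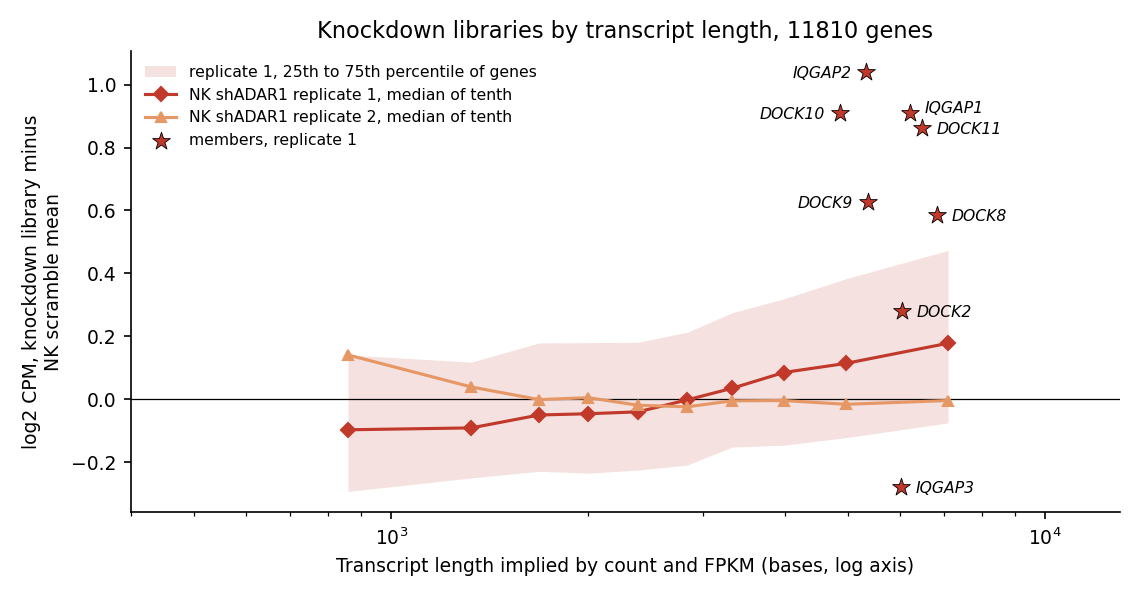
Median log2 CPM difference of each NK shADAR1 library from the NK scramble mean (vertical axis) in 10 equal groups of all 11810 tested genes by implied transcript length in bases (log axis), with the 25th to 75th percentile of replicate 1 shaded and the members' values in replicate 1 as stars. The line of replicate 1 climbs from -0.10 to 0.18, and IQGAP2, DOCK10, IQGAP1, DOCK11, DOCK9 and DOCK8 lie above the shaded band.

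Levels of different genes were compared by FPKM, which is scaled for transcript length. DOCK2 was the most abundant member in every library, at 89.7 ± 14.4 FPKM (SD over all 4 libraries), above 91.7% of tested genes. IQGAP1 followed at 66.8 ± 24.9 FPKM and DOCK8 at 49.3 ± 13.9 FPKM, and IQGAP1 was above DOCK8 in 3 of the 4 libraries. The abundant members were thus the Rac activator of subfamily A, the widely expressed scaffold and the Cdc42 activator of subfamily C.

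IQGAP2 at 33.4 ± 14.3 FPKM and DOCK10 at 29.7 ± 10.3 FPKM could not be ordered, each being above the other in 2 of the 4 libraries. DOCK9 stood at 15.7 ± 5.36 FPKM and DOCK11 at 8.33 ± 2.78 FPKM. IQGAP3 at 1.03 ± 0.11 FPKM and DOCK5 at 0.01 FPKM closed the order. The ranges over the 4 libraries overlapped between all neighbours down to DOCK9 and DOCK11, whereas DOCK11, IQGAP3 and DOCK5 had separate ranges. Among the 8 tested members, those with separated groups ran from IQGAP1, next to the most abundant, to DOCK11, next to the rarest. The untested DOCK5, the rarest member, was also higher in both knockdown libraries, at 1 to 6 counts.

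Within the DOCK genes the mixture differed between libraries. DOCK2 made up 49.1% and 49.8% of the summed DOCK FPKM in NK scramble replicates 1 and 2 and 42.2% and 46.8% in NK shADAR1 replicates 1 and 2. DOCK10 made up 14.0% and 11.6% in the controls and 17.1% and 18.4% in the knockdown libraries. By the deposited FPKM the share of DOCK2 was thus lower, and that of DOCK10 higher, in both knockdown libraries than in both controls, with no test. This separation was lost for both genes when 1 length per gene was used in every library, an alternative chosen after seeing the data. The DOCK2 share was then 47.4% and 50.7% in the controls and 42.0% and 48.1% in the knockdown libraries, and the DOCK10 share 16.6% and 10.5% against 17.5% and 16.2%. The summed FPKM of the 6 DOCK genes was 147.9, 193.8, 250.2 and 179.4 in the same order, so the sums overlapped between groups. The summed FPKM of the 3 IQGAP genes was 85.2, 69.0, 157.8 and 93.1, with both knockdown libraries above both controls. IQGAP1 made up 63.2% to 69.5% of that sum and the groups overlapped.

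The deposited count and FPKM of a gene together imply the transcript length that the authors' program used in each library, and this length was not fixed for every member. For DOCK10 it was 5969 and 4308 bases in NK scramble replicates 1 and 2 and 4987 and 4153 bases in NK shADAR1 replicates 1 and 2, a span of 1.44-fold. The length was shorter in replicate 2 than in replicate 1 of each group. The groups overlapped, since NK shADAR1 replicate 1 had a longer length than NK scramble replicate 2. A span of at least 1.2-fold was found in 18.3% of genes tested and in 1 of the 8 tested members, DOCK10. For this gene the fold was 1.58 by normalised counts and 1.76 by FPKM, and the FPKM value divides by this length.

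DOCK9 had implied lengths of 5494, 5119, 5039 and 5759 bases in the same order, a span of 1.14-fold. IQGAP2 ran from 5172 to 5611 bases and IQGAP1 from 6069 to 6350 bases. The lengths of DOCK11 (6468 to 6484 bases) and IQGAP3 (6005 to 6014 bases) were constant within 1.002-fold. DOCK2 ran from 6019 to 6057 bases and DOCK8 from 6709 to 6964 bases. The few counts of DOCK5 gave no reliable length.

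**Figure D4:**
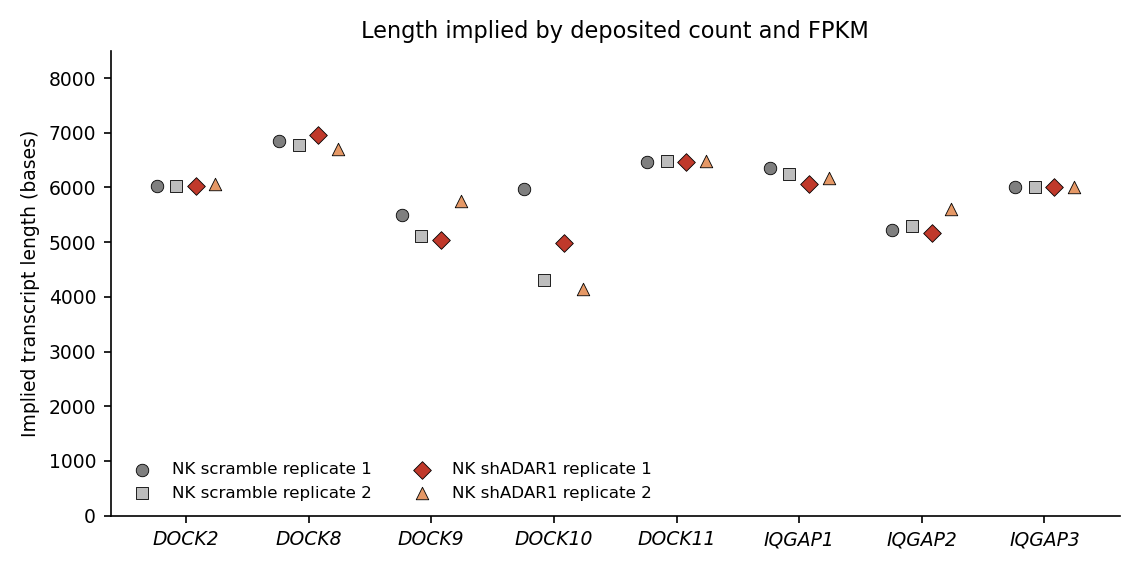
Transcript length in bases implied by the deposited count and FPKM of each tested member, one point per library. DOCK10 spreads from 4153 to 5969 bases, whereas DOCK11 and IQGAP3 have coinciding points.

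The 4 other DOCK genes listed were scarce in these cells. DOCK1, the founding Rac exchange factor, had 4, 0, 9 and 4 counts in NK scramble replicates 1 and 2 and NK shADAR1 replicates 1 and 2. DOCK6 had 0, 0, 2 and 0 counts in the same order. Neither passed the filter. DOCK3 had 28, 25, 31 and 30 counts and a log2 fold change of 0.25 ± 0.52 (SE), and DOCK4, a Rac exchange factor, had 60, 44, 60 and 55 counts and a log2 fold change of 0.19 ± 0.45 (SE). Neither passed edgeR's test (adjusted p = 1.00).

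Around the members, 123 genes of the same pathway were listed by role, and 106 of them passed the filter. edgeR's quasi-likelihood test, adjusted over all 11810 genes, called 0 of the 106 and DESeq2 called 0, and at an unadjusted p under 0.05 edgeR gave 3, APC, ARHGAP18 and SRGAP3, all higher in NK shADAR1. The median log2 fold change of the 106 was 0.05, beside 0.0 over all genes. The lists were drawn up with earlier results of these data known. The largest and smallest log2 fold changes named for each list leave out genes averaging under 100 counts.

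The direct partners of DOCK proteins, such as the ELMO adaptors, held 12 tested genes with a median log2 fold change of -0.00, 6 with a positive value and 6 with a negative one. The most abundant was WIPF1, a partner of the WASP protein that also binds DOCK8, with 691.4, 801.6, 732.7 and 733.6 CPM in the 2 control and the 2 knockdown libraries. STK3, a kinase of the Hippo pathway, had the largest log2 fold change at 0.19 and CRK, the adaptor through which DOCK1 was found, the smallest at -0.26. CRK was read at 21.6 and 28.2 CPM in the controls and at 20.9 and 20.5 CPM in the knockdown libraries. These partners showed no common direction.

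Of the partners of IQGAP proteins 13 were tested, 11 with a positive and 2 with a negative value, and the median log2 fold change was 0.09. CALM3, a calmodulin gene, was the most abundant at 562.8, 679.8, 531.1 and 749.2 CPM in the same order. APC, the tumour suppressor that links IQGAP1 to microtubules, had the largest log2 fold change, 0.80 ± 0.32 (SE), with 26.1 and 14.9 CPM in the controls and 45.7 and 25.6 CPM in the knockdown libraries. Its groups overlapped, and its unadjusted p = 0.0324 became an adjusted p = 1.00 in edgeR's test. Without NK scramble replicate 1, the control with the higher value, its log2 fold change was 1.25. That value rested on 1 control library. ARF6, a small GTPase of membrane traffic, had the smallest value at -0.13.

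In the list of small GTPases, which holds the Rac and Cdc42 genes that DOCK proteins act on and their relatives, values lay on both sides of 0: 7 of 14 tested genes had a positive value, 7 a negative one, and the median log2 fold change was 0.01. RAC2, the Rac of blood cells and a target of DOCK2, was the most abundant and was read at 641.8, 640.7, 663.3 and 663.8 CPM, a log2 fold change of 0.05 ± 0.20 (SE). RHOC had the largest log2 fold change at 0.11 and RHOH, a GTPase of blood cells without GTPase activity, the smallest at -0.28.

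The effectors of Rac and Cdc42 held 15 tested genes, 7 with a positive and 8 with a negative value, with a median log2 fold change of -0.03. CYFIP2, a subunit of the WAVE complex, was the most abundant at 727.3, 720.8, 708.6 and 751.7 CPM. NCKAP1L, the WAVE subunit of blood cells, had the largest log2 fold change at 0.16, and WASL, the widely expressed relative of WASP, the smallest at -0.54 ± 0.32 (SE). WASL was lower in both knockdown libraries, at 3.61 and 3.08 CPM, than in the controls, at 4.71 and 5.01 CPM, without passing edgeR's test (adjusted p = 1.00).

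The other exchange factors of these GTPases, most of which carry the Dbl homology domain in place of DHR2, were also mostly higher in NK shADAR1 replicate 1. Of 24 tested genes 18 had a positive and 6 a negative value, with a median log2 fold change of 0.14. NK shADAR1 replicate 1 was the highest library in 17 of the 24, against 29.2% of all genes tested. It was also the highest in 7 of 13 IQGAP partners, 12 of 26 GTPase inhibitors and 1 of 2 other DOCK genes. In DOCK partners it was the highest in 2 of 12, in small GTPases in 4 of 14 and in effectors in 3 of 15. The exchange factors' median log2 difference from the control mean was 0.28 in replicate 1 and -0.02 in replicate 2. The part of length and GC content in these values was not tested. ARHGEF1, an exchange factor of blood cells, was the most abundant at 422.1, 354.7, 521.6 and 359.2 CPM. ECT2, the exchange factor of cytokinesis, had the largest log2 fold change, 0.43 ± 0.21 (SE), with 128.4 and 98.5 CPM in the controls and 160.1 and 144.8 CPM in the knockdown libraries. ARHGEF2, a microtubule-bound exchange factor, had the smallest at -0.16.

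The inhibitors of these GTPases, which are GTPase-activating proteins and dissociation inhibitors, held 26 tested genes, 19 with a positive and 7 with a negative value, with a median log2 fold change of 0.07. ARHGDIB, the dissociation inhibitor of blood cells, was the most abundant at 479.7, 563.4, 504.0 and 667.9 CPM. SRGAP3 was read at 14.4 and 11.1 CPM in the controls and at 22.9 and 16.4 CPM in the knockdown libraries, a log2 fold change of 0.63 ± 0.25 (SE). ARHGAP18 was read at 28.1 and 21.3 CPM in the controls and at 36.1 and 39.0 CPM in the knockdown libraries, a log2 fold change of 0.61 ± 0.22 (SE). Both GTPase-activating proteins were above the controls in both knockdown libraries, and both had an adjusted p = 1.00 in edgeR's test. ARHGAP10 had the smallest value at -0.22.

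**Figure D5:**
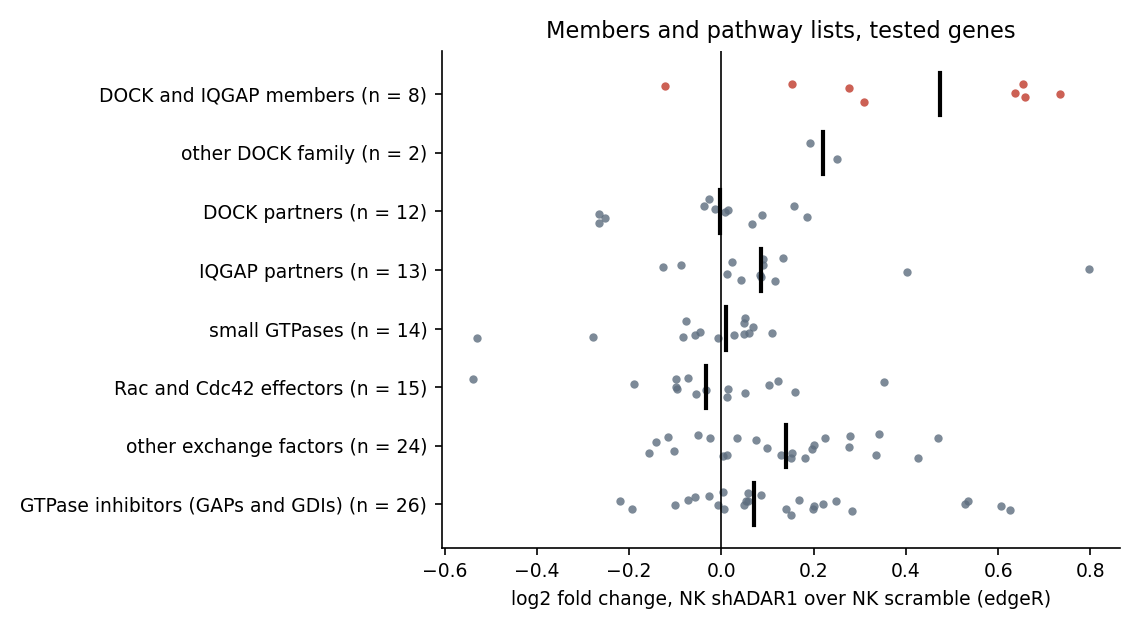
Fitted log2 fold change of NK shADAR1 over NK scramble (edgeR) for each tested gene, one point per gene and a black bar at the median, in the members and in the 7 pathway lists with their n. The 8 members lie between -0.12 and 0.73, and the medians of the lists lie between -0.03 (effectors of Rac and Cdc42) and 0.22 (other DOCK genes).

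Genes whose profile over the 4 libraries was nearest to that of DOCK10 and IQGAP1 were sought among 10420 genes, by the root mean square difference of log2 CPM centred on each gene's mean. For DOCK10 the nearest were ARAP2 (0.0213), ANKRD36C (0.0255) and DNAJC13 (0.0288). ARAP2 was read at 43.9 and 34.8 CPM in the controls and at 72.4 and 48.9 CPM in the knockdown libraries. For IQGAP1 the nearest were SGSH (0.0196), a gene listed without a symbol under ENSG00000261915 (0.0400), and CLK1 (0.0419). CLK1 was read at 33.3 and 31.1 CPM in the controls and at 57.2 and 40.1 CPM in the knockdown libraries. Within a difference of 0.1 lay 49 genes for DOCK10 and 56 for IQGAP1.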

How the data were processed

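Total RNA was selected for mRNA with oligo(dT) beads and sequenced from 4 NK-92 libraries. Per the labels, reads were trimmed with fastp 0.18.0 (submitters' processing notes), and the aligner, counting program, genome build and strand setting are not given in the sources used here. The authors deposited 1 table of 20323 genes with estimated counts, unscaled for depth and not all whole numbers, and FPKM values, which the authors scaled for transcript length and depth. Library totals of 37881704 to 39960491 counts made counting error small for all members but DOCK5 and IQGAP3.

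Estimated counts were rounded, filtered with filterByExpr (minimum count 10; 11810 genes kept), scaled by TMM and fitted with edgeR 4.0.16 (R 4.3.3) by the quasi-likelihood test with Benjamini-Hochberg adjustment. A gene was called when its adjusted p was below 0.05 and its fold reached 1.5. DESeq2 1.42.0, other scalings and filters, leaving out each library, the replicate number as a block, and splines of 4 degrees of freedom for length and GC content as offsets were the alternatives. Log2 differences of single libraries used log2 CPM with a prior count of 2, and FPKM differences used log2(FPKM + 0.1) or log2(FPKM + 1). Implied transcript length was the count divided by FPKM and by the library total. GC content came from the longest coding GENCODE 29 transcript of GRCh38 and was known for 98.3% of tested genes. Promoter windows came from RefSeq, and where the authors' build differs the coordinates describe the reference only.

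The members and lists were chosen with earlier results of these data known. Named were every member, ADAR, from each list the genes past the test or else the most abundant gene and the genes with the largest and smallest log2 fold change at a mean of at least 100 counts, and for DOCK10 and IQGAP1 the 3 nearest profiles at a mean of at least 50 counts. APC, SRGAP3 and ARHGAP18 were also named for their unadjusted p. For the other DOCK genes, where no gene reached 100 counts, all 4 listed were given, chosen after their values were seen.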

Additional observations from a re-analysis of the deposited data

How the results depend on the processing

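ADAR stayed negative under each alternative run for it, which left out those with GC content and FPKM. DOCK10, DOCK11, IQGAP1 and IQGAP2 stayed positive under every alternative tried. Their log2 fold changes ran over 0.36 to 0.90 for DOCK10, 0.43 to 0.88 for DOCK11, 0.30 to 0.91 for IQGAP1 and 0.38 to 1.02 for IQGAP2. On leaving out 1 library these signs were fixed in advance. Both knockdown libraries lay above both controls for these 4 members and below both controls for ADAR. The other alternatives rescaled or refitted the same libraries, from which these members had been chosen. DOCK2 was -0.06 and DOCK8 -0.03 without NK scramble replicate 1, DOCK8 was -0.05 and DOCK9 -0.09 without NK shADAR1 replicate 1, and IQGAP3 was 0.03 there. The members' median ran from 0.17 (without NK shADAR1 replicate 1) to 0.73 (without NK shADAR1 replicate 2) and from 0.36 to 0.49 otherwise. The number of members with separated groups ran from 4 to 7 on leaving out 1 library, being 7 without NK scramble replicate 2 or NK shADAR1 replicate 2. With fewer libraries left to overlap, this number could hardly fall. It was 5 with DESeq2 or with no count filter, where DOCK5 is added. The number of genes called was 0 with edgeR and 213 at an unadjusted p under 0.05 with the fold limit. It ran from 1 to 47 on leaving out 1 library, where the lone library of a group is assumed to vary like the other group. In the pathway lists the number called was 3 at the unadjusted limit and 0 to 1 on leaving out 1 library, the 1 being APC (log2 fold change 1.25) without NK scramble replicate 1. The causes were not tested.

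With the replicate number as a block, 13 genes were called, 71 with the length offset as well and 61 with the length and GC offset, and the members' median was 0.45, 0.36 and 0.37. The labels share only a number between groups. Over the 11810 tested genes, the deviations of the 2 replicate 1 libraries from their group means correlated at 0.31. With 2 libraries per group the replicate 2 pair gives the same value, so the pairing is not established. Among the 71 was 1 member, IQGAP2 (log2 fold change 0.65), which had been chosen on this contrast, and no other setting called a member. The GC offset, alone or with length, was chosen after seeing the data.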
